A study of Mus musculus with 6 samples.

Results

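Pericytes and smooth muscle cells, together called mural cells, wrap the outside of blood vessels. The 8 genes described here mark them: the contractile genes Acta2, Tagln, Myh11 and Cnn1, and the pericyte genes Rgs5, Pdgfrb, Cspg4 and Mcam. They were chosen by name from the 23420 genes of the deposited table, with earlier results of these data known. They are not all the genes of that identity in it. Further ones are described below. All 8 passed the filter on low values and were tested. They were measured in humeral bone of C57BL/6 mice on day 6 after birth, in 3 Control libraries and 3 libraries of a conditional Tfam knockout (Tfam cKO), in which Prx1-Cre removes Tfam from the limb mesenchyme. Tfam encodes the factor that packages and transcribes mitochondrial DNA. The bones of both groups were flushed with PBS to remove marrow. The replicates are called C1 to C3 (Control) and K1 to K3 (Tfam cKO). The sources used here do not state which alleles the Control mice carried, which part of Tfam is removed or whether each library came from its own animal. The p-values therefore weigh the difference between the groups against the spread of libraries, which may not be the spread of animals.

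Smooth muscle cells around arteries and arterioles contract with actin, myosin and their binding proteins, while pericytes sit on capillaries, where endothelial cells draw them in with platelet-derived growth factor B. Mural genes are not private to mural cells. Acta2 and Tagln are also made by activated fibroblasts and by developing skeletal muscle, Mcam by endothelium, and Pdgfrb and Cspg4 by mesenchymal progenitors of the skeleton. Prx1-Cre acts in limb mesenchyme, and the bone also holds endothelial and blood cells outside that lineage.

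Each library held 1441152 to 1714770 reads assigned to genes. Levels are given as normalized reads, the authors' read counts divided by 1 size factor per library. Genes that define bone and cartilage were present in all libraries. Bglap (osteocalcin) had 604 to 654 normalized reads in Control and 163 to 233 in Tfam cKO. Col2a1 (cartilage collagen) had 394 to 448 and 386 to 680. Acan, also of cartilage, had 40.2, 75.9 and 38.8 in Control and 320, 113 and 62.4 in Tfam cKO. The groups overlapped for Acan, and it did not pass (limma adjusted p = 0.0572). Acan passed with edgeR (0.0373), without C2 (0.0460) or K3 (0.0133) and by the q of the authors' deposited table (0.00605). Like Acta2 and Tagln, it was highest in K1 and lowest in K3 among the Tfam cKO libraries. Tfam had 40.6 ± 10.8 normalized reads in Tfam cKO against 70.7 ± 8.75 in Control (SD, n = 3 each; log2 fold change -0.81 ± 0.21 SE, limma adjusted p = 0.0246), and it did not pass without C1 (0.0503), C2 (0.0704), C3 (0.107) or K1 (0.0748) or with DESeq2 (0.0553). Libraries of either group differed widely in skeletal muscle genes, as described below.

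Of the 8 genes, 4 were higher in Tfam cKO (Acta2, Cspg4, Tagln and Mcam) and 1 was lower (Rgs5), while Pdgfrb, Myh11 and Cnn1 did not pass. Of all 14438 genes tested, 6.42% were higher and 6.01% lower at a limma adjusted p under 0.05. The median log2 fold change of the 8 was 0.52, beside 0.01 over all genes tested. The libraries of the groups did not overlap for 6 of the 8, as for 32.1% of all genes tested. The same 5 genes had a q under 0.05 in the authors' deposited table, where Pdgfrb had a q of 0.138. In bulk RNA, a change in the number of cells of a type and a change in RNA per cell cannot be told apart.

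**Figure D1:**
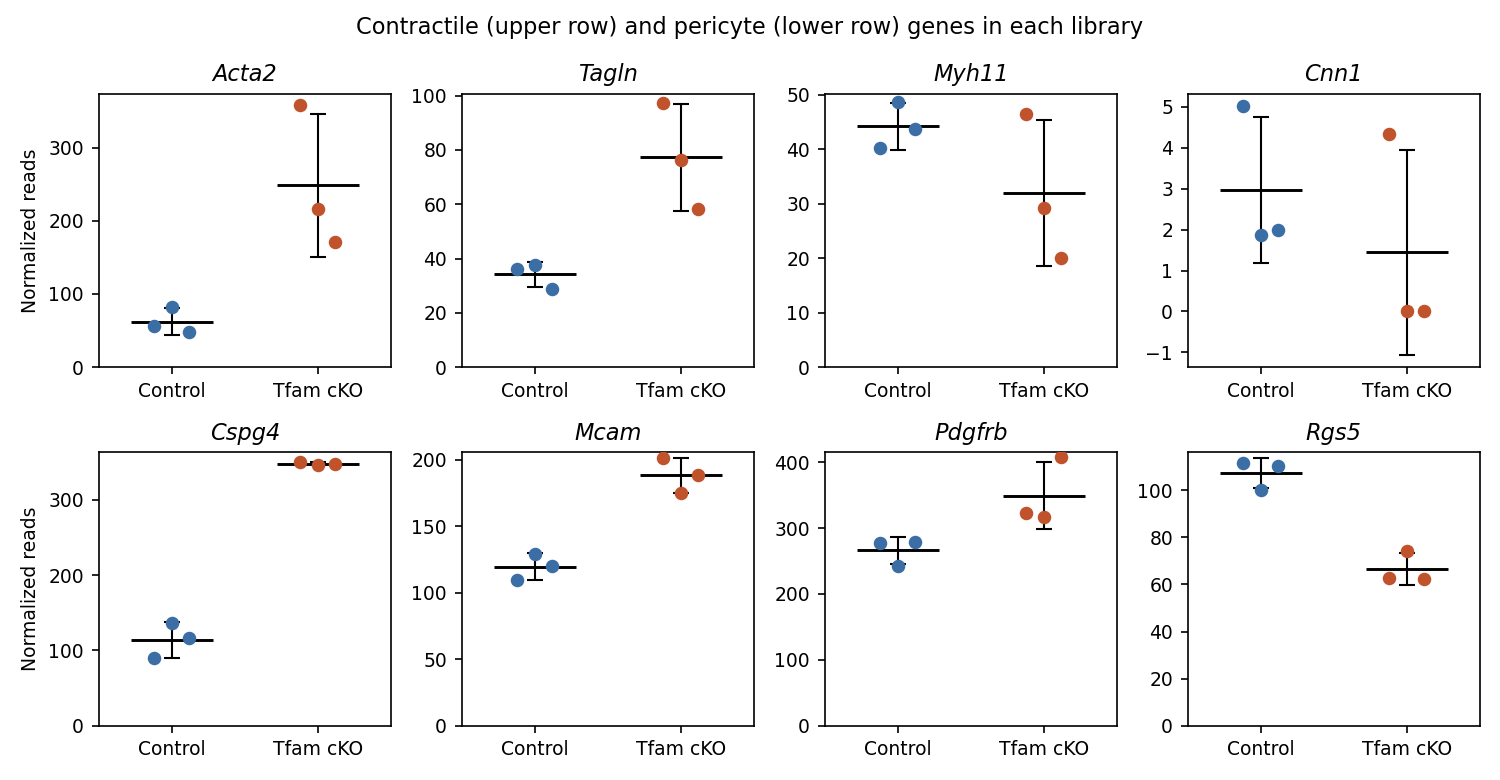
Normalized reads (y axis, linear from 0, except Cnn1, whose error bar reaches below 0) of the 8 genes in the 3 Control and 3 Tfam cKO libraries. Points are libraries, horizontal lines are group means and error bars are SD. Acta2, Tagln, Cspg4, Mcam and Pdgfrb sit higher in every Tfam cKO library than in any Control library, Rgs5 sits lower in every one, and Myh11 and Cnn1 overlap.

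The contractile genes did not move together. Acta2 encodes the alpha actin of smooth muscle. It is read from the minus strand of chromosome 19 (34240336 to 34255373 in mm10), and its reads were counted over 9 exon blocks. It had 56.2, 82.4 and 47.7 normalized reads in Control and 358, 216 and 171 in Tfam cKO. Every Tfam cKO library lay above every Control library, with a wide spread among the Tfam cKO libraries. The means were 62.1 ± 18.1 and 248 ± 97.6 (SD, n = 3 each), a ratio of 3.997, and the log2 fold change on the log2(value + 1) scale was 1.95 ± 0.25 (SE; limma adjusted p = 0.000431). Tagln, on chromosome 9, minus strand, at 45929628 to 45936058, encodes transgelin, an actin-binding protein of the calponin family. It had 36.2, 37.5 and 28.8 normalized reads in Control and 97.4, 76.3 and 58.2 in Tfam cKO. The groups were again apart, with replicate 1 the highest and replicate 3 the lowest of the Tfam cKO libraries for both genes. Tagln rose by a log2 fold change of 1.13 ± 0.21 (limma adjusted p = 0.00366). Of its 1586 exon bases, 95 are shared with Pcsk7 on the opposite strand, a gene at 50.7 ± 8.10 and 54.4 ± 9.62 normalized reads in Control and Tfam cKO (adjusted p = 0.794). Acta2 shares 0.326% of its transcript's stretches of 50 bases with other genes, pseudogenes and Actg1 among them, and Tagln 0%.

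Myh11, the heavy chain of smooth muscle myosin and the most restricted marker of mature smooth muscle among the contractile genes, did not follow. It lies on chromosome 16, minus strand, at 14194527 to 14291408. Its Control libraries had 40.2, 48.7 and 43.8 normalized reads and its Tfam cKO libraries 46.5, 29.2 and 20.1. Of its stretches of 50 bases, 0.34% also occur in the non-muscle myosins Myh9 or Myh10. The groups overlapped through K1, and the log2 fold change of -0.53 ± 0.27 did not pass (limma adjusted p = 0.219, and 0.0507 without K1). Cnn1, calponin 1, which dampens the actin-activated myosin ATPase, lies on chromosome 9, plus strand, at 22099253 to 22109221, and was close to the limit of detection. It had 5, 2 and 2 reads in the Control libraries and 4, 0 and 0 in those of Tfam cKO. The ratio of summed reads, adjusted for depth, was 0.470 (95% counting interval 0.106 to 1.68), so no difference was detectable at this depth.

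Acta2 is a textbook target of serum response factor, which binds the CArG box with its myocardin-related partners. No promoter sequence was available for Tagln, Myh11 and Pdgfrb. It was available for the other 5 of the 8 genes in the RefSeq table (GRCm38.p6), whose gene starts coincide with the first exon base in the deposited table. The 250 bases before the start are shown for the 4 of these that were called higher or lower, so that the promoter of the gene with the largest rise can be read beside the others. Capitals mark every match, on either strand, to the CArG box, to a CArG-like form with exactly 1 G or C in its A/T core (added after the sequences were read), to CATTCC (bound by TEAD factors), to TGGGAA (bound by RBPJ, the Notch effector) and to TATAAA. For Acta2 the window is chr19:34255374-34255623, minus strand:
Acta2: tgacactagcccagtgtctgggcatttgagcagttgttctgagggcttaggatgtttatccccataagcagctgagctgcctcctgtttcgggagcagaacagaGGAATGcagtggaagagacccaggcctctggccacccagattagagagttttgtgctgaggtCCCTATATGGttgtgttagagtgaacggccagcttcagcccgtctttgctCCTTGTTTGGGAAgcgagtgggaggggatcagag
The CArG-like matches in Acta2 are CCCTATATGG, from 84 to 75 bases before the start, and CCTTGTTTGG, from 34 to 25 bases before it. The latter overlaps the TGGGAA match at 27 to 22 bases before the start, and a CATTCC match lies on the reverse strand at 146 to 141. No strict CArG box was found in any of the 5 windows. The window of Cnn1, which is not shown, held none of the motifs searched. Whether the matches in Acta2 bear on its rise was not tested. Of 32851 windows of 250 bases in the table, 7.25% held a CArG-like match, 1.47% a strict CArG box, 12.6% CATTCC, 21.6% TGGGAA and 12.4% TATAAA.

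Within each library, Acta2 rose relative to Myh11. Per kilobase of exon, the ratio of Acta2 to Myh11 was 3.61, 4.36 and 2.81 in Control and 19.8, 19.0 and 22.0 in Tfam cKO. The Tfam cKO ratios lay close to each other although the libraries differed in the level of both genes. The ratio of Tagln to Myh11 went from 3.76, 3.22 and 2.76 to 8.75, 10.9 and 12.1, and that of Acta2 to Tagln from 1.11 ± 0.21 to 1.94 ± 0.28 (SD, n = 3 each). These ratios were chosen after the values were seen and were not tested.

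**Figure D2:**
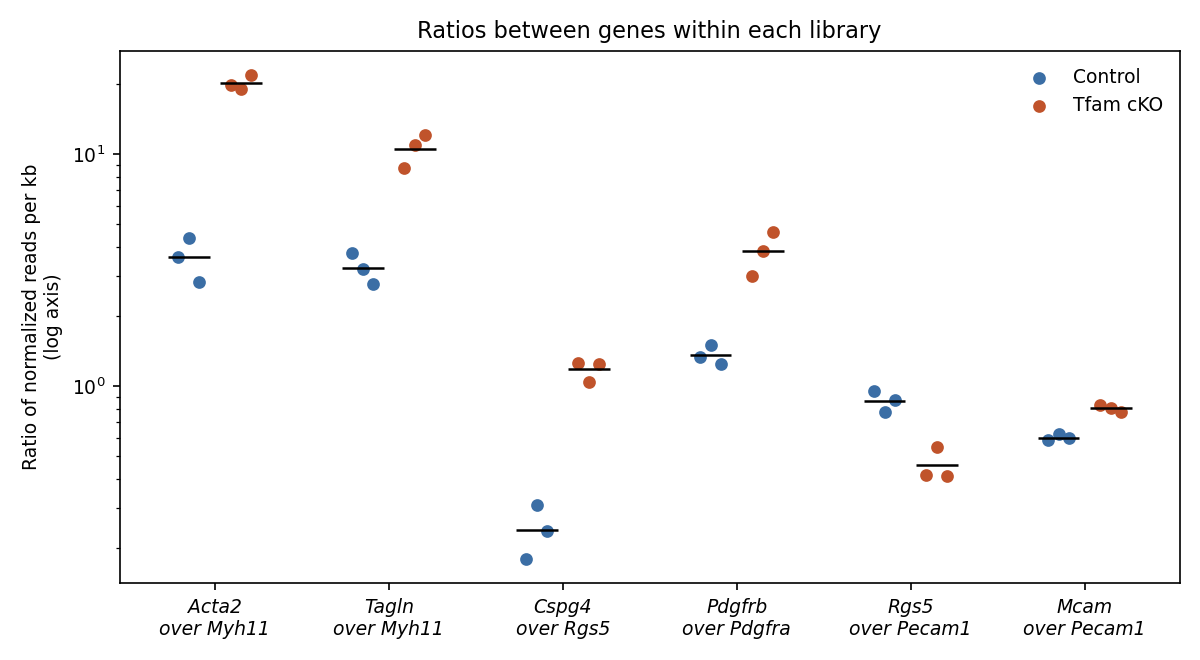
Ratios of normalized reads per kilobase of exon between pairs of genes (y axis, log scale) within each of the 3 Control and 3 Tfam cKO libraries; points are libraries and lines are group means. Acta2 over Myh11 is 2.81 to 4.36 in Control and 19.0 to 22.0 in Tfam cKO, and Cspg4 over Rgs5 0.180 to 0.307 and 1.05 to 1.26.

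Skeletal muscle genes varied between libraries within both groups, and some contractile genes varied with them. The summed level of 18 skeletal muscle genes was 1735, 10368 and 4244 normalized reads in Control and 14555, 6870 and 1843 in Tfam cKO. The group means were 5449 ± 4441 and 7756 ± 6402 (SD, n = 3 each), a spread at which a difference between the groups can go undetected. Of the 18 genes, 0 passed (0 also by edgeR and by DESeq2, with 0 at an unadjusted limma p under 0.05), although 2 were called higher without K3. The median log2 fold change of the 18 genes was 0.31, with 13 positive and 5 negative. Their defining markers Acta1 (280 to 2186 in Control, 296 to 2914 in Tfam cKO), Ckm (102 to 518 and 100.5 to 621) and Myh3 (24.1 to 228 and 15.9 to 208) were above 0 in all libraries. Acta2, Tagln and Myh11 followed the same order as muscle among the Tfam cKO libraries. K3, the lowest of its group in muscle genes, had 171 normalized reads of Acta2, against 82.4 in C2, the highest of its group in muscle genes. Without K1, the library highest in muscle genes, Acta2 rose by 1.65 (limma adjusted p = 0.000721) and Tagln by 0.95 (0.0178). The part of muscle content in the rises of Acta2 and Tagln was not tested. Cspg4 was nearly level across the Tfam cKO libraries. In Control, however, Cspg4 (89.4, 137 and 116 in C1, C2 and C3) kept the order of muscle, as did Myh11 (40.2, 48.7 and 43.8). There Acta2 and Tagln were highest in C2, like muscle, but lowest in C3.

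**Figure D3:**
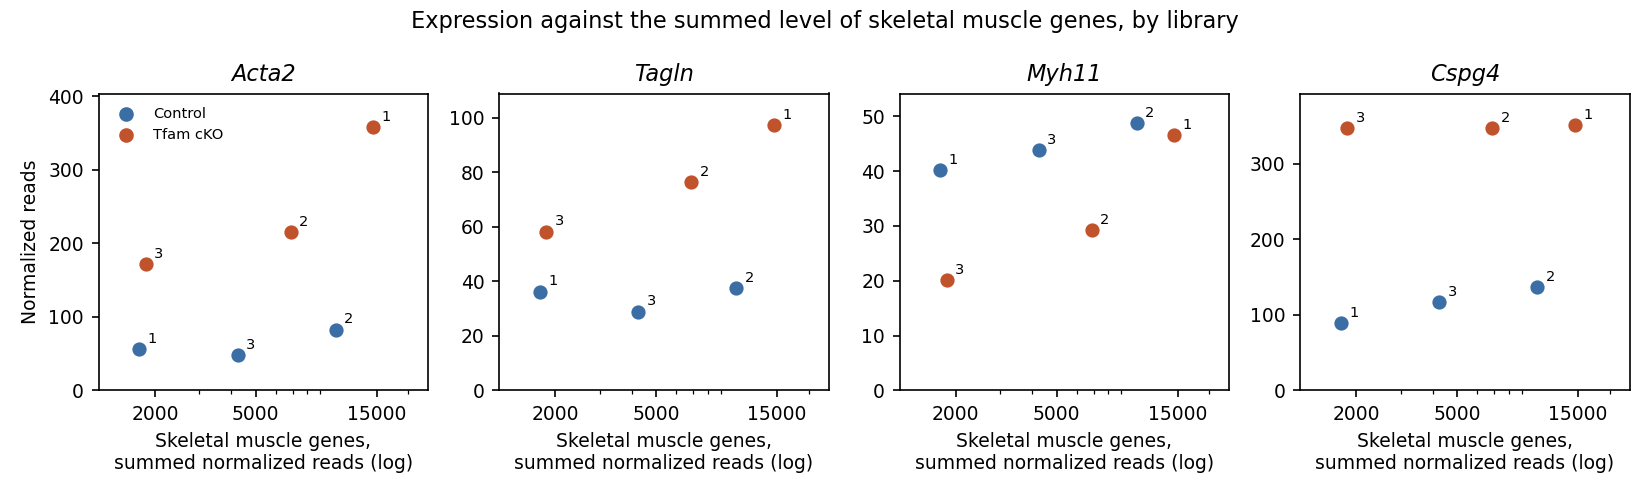
Normalized reads of Acta2, Tagln, Myh11 and Cspg4 (y axes, linear) against the summed normalized reads of 18 skeletal muscle genes (x axis, log scale); each point is a library, labelled with its replicate number. In Tfam cKO, Acta2, Tagln and Myh11 are highest in replicate 1 and lowest in replicate 3, while Cspg4 stays between 346 and 351. In Control, Cspg4 and Myh11 are highest in replicate 2 and lowest in replicate 1, as muscle is. Acta2, Tagln and Cspg4 are higher in every Tfam cKO library than in any Control library.

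Among the pericyte genes, Cspg4 rose most. It encodes NG2, a transmembrane chondroitin sulfate proteoglycan of nascent pericytes that is also found on other progenitors, and lies on chromosome 9, plus strand, at 56865104 to 56899870. It had 89.4, 137 and 116 normalized reads in Control and 351, 346 and 347 in Tfam cKO. The Tfam cKO libraries were almost equal, and all lay above the highest Control library. The means of 114 ± 23.8 and 348 ± 2.24 (SD, n = 3 each) gave a log2 fold change of 1.62 ± 0.14 (SE; limma adjusted p = 3.15e-05). Mcam, the adhesion molecule CD146, on chromosome 9, plus strand, at 44134658 to 44142726, had 109, 129 and 120 normalized reads in Control and 201, 175 and 188 in Tfam cKO. It rose by 0.65 ± 0.12 (limma adjusted p = 0.00349), with no overlap. The windows of 250 bases before the starts of Cspg4 (chr9:56864854-56865103, plus strand) and Mcam (chr9:44134408-44134657, plus strand) held none of the motifs searched, and their G and C shares were 60.4% and 73.6%, against 53.6% for Acta2.
Cspg4: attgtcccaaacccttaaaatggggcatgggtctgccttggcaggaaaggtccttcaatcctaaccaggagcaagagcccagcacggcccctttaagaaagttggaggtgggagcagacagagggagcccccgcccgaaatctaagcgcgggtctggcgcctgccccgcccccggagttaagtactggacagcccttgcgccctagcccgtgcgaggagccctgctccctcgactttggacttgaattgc
Mcam: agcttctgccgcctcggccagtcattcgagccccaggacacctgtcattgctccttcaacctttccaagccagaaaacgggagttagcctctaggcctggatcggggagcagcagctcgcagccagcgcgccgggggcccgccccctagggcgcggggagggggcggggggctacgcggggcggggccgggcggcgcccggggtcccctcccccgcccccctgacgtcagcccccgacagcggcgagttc

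Rgs5 moved the other way. It encodes a regulator that speeds the hydrolysis of GTP on G proteins, is one of the most used transcript markers of pericytes, and lies on chromosome 1, plus strand, at 169655501 to 169693526. It had 111, 100.2 and 110 normalized reads in Control and 62.8, 74.4 and 62.4 in Tfam cKO. Every Tfam cKO library lay below the lowest Control library. The means were 107 ± 6.22 and 66.5 ± 6.80 (SD, n = 3 each), and the log2 fold change was -0.69 ± 0.14 (SE; limma adjusted p = 0.00618). Its promoter window (chr1:169655251-169655500, plus strand) is shown as that of the 1 gene that fell, and it held none of the motifs searched.
Rgs5: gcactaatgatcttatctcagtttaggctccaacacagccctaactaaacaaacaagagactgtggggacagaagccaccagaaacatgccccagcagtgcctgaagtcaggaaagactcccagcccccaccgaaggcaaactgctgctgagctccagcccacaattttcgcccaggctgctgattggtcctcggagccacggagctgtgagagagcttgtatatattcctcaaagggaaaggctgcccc

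Pdgfrb, the receptor through which platelet-derived growth factor B recruits pericytes, lies on chromosome 18, plus strand, at 61045150 to 61085067. It had 277, 243 and 279 normalized reads in Control and 324, 317 and 407 in Tfam cKO. The groups did not overlap, but the log2 fold change of 0.38 ± 0.12 missed the threshold (limma adjusted p = 0.0526). It passed without K2 (0.0460), with pseudocount 5 (0.0498), with a robust fit (0.0327) and after the trend with exon length was taken out of every library (0.0342), the last chosen after seeing the data. It did not pass with edgeR (0.0552) or DESeq2 (0.0860). The other pericyte genes and the contractile genes kept their side of the threshold under every alternative that gave them an adjusted p.

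Cspg4 and Rgs5 changed places. Per kilobase, the ratio of Cspg4 to Rgs5 was 0.180, 0.307 and 0.237 in Control and 1.26, 1.05 and 1.25 in Tfam cKO. Relative to the endothelial adhesion gene Pecam1, the ratio per kilobase of Rgs5 went from 0.866 ± 0.090 to 0.457 ± 0.078 and that of Mcam from 0.601 ± 0.020 to 0.803 ± 0.028, while that of Pdgfrb was 0.718 ± 0.085 and 0.795 ± 0.091 (SD, n = 3 each). The ratios of Rgs5 and Mcam did not overlap between the groups and that of Pdgfrb did. They were chosen after the values were seen and were not tested.

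Levels per kilobase of exon put the genes in order. In Control, Rgs5 was highest at 59.4 ± 3.44 normalized reads per kilobase, followed by Pdgfrb at 49.2 ± 3.76, Mcam at 41.4 ± 3.43, Acta2 at 24.2 ± 7.03, Tagln at 21.5 ± 2.93, Cspg4 at 14.2 ± 2.95, Myh11 at 6.67 ± 0.65 and Cnn1 at 1.49 ± 0.90 (SD, n = 3 each). Only Acta2 and Tagln overlapped as neighbours in that order. In Tfam cKO the order was Acta2 at 96.6 ± 37.9, Mcam at 65.1 ± 4.52, Pdgfrb at 64.5 ± 9.29, Tagln at 48.7 ± 12.4, Cspg4 at 43.2 ± 0.28, Rgs5 at 36.8 ± 3.76, Myh11 at 4.82 ± 2.02 and Cnn1 at 0.726 ± 1.26. There the neighbours from Acta2 down to Cspg4 overlapped each other, and Rgs5, Myh11 and Cnn1 were each apart from the gene above. By group mean, Rgs5 thus led the order in Control and Acta2 in Tfam cKO. In K3, however, Pdgfrb (75.3) was above Acta2 (66.6).

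Other pericyte genes went both ways. Of 14 listed, 12 were tested, 1 was higher and 2 were lower, beside 6.42% and 6.01% of all genes tested. The median log2 fold change of 0.14 ranged from -0.16 to 0.39 over the alternatives, lowest without C3. Abcc9 and Kcnj8, the sulfonylurea receptor and the pore of the ATP-sensitive potassium channel of mural cells, both fell. Abcc9 had 284, 220 and 307 normalized reads in Control and 136, 152 and 129 in Tfam cKO (log2 fold change -0.95 ± 0.13, limma adjusted p = 0.000859). Kcnj8 had 31.1, 32.8 and 30.8 against 16.2, 10.4 and 10.6 (-1.31 ± 0.26, adjusted p = 0.00646). Neither gene overlapped between the groups. Anpep, aminopeptidase N, rose from 69.8 ± 22.3 to 144 ± 20.7 (1.06 ± 0.20, adjusted p = 0.00393), and Notch3, the Notch receptor of mural cells, did not pass at 158 ± 31.3 against 207 ± 8.34 (0.41 ± 0.14, adjusted p = 0.0803), but passed without C1 (0.0488) and after the trend with exon length was taken out (0.0444). Vtn and Higd1b had too few reads to be tested.

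Of 22 other listed smooth muscle genes, contractile or not, 21 were tested, 4 were higher and 0 lower (6.42% and 6.01% of all genes tested). Their median log2 fold change was 0.28 (0.18 to 0.65 over the alternatives, highest without K3). By edgeR 0 were lower as well, by DESeq2 0, and Lmod1 had an unadjusted limma p under 0.05. Cald1, caldesmon, a brake on actin and myosin found in muscle and non-muscle cells, rose from 299 ± 28.3 to 574 ± 50.1 normalized reads (0.94 ± 0.11, adjusted p = 0.000231). Myl9, a regulatory light chain of myosin, rose from 83.0 ± 15.2 to 157 ± 24.4 (0.91 ± 0.16, adjusted p = 0.00266). These calls held under every alternative run. Susd5, a membrane protein (0.81, adjusted p = 0.0217), and Flna, the actin crosslinker filamin A (0.35, adjusted p = 0.0350), rose as well. Susd5 lost its call without C1 (0.0965), C3 (0.0681), K1 (0.0927) or K3 (0.0770) and with DESeq2 (0.0720), and Flna without any 1 library (0.0588 to 0.137), with quantile normalization (0.532), without the filter on low values (0.0596) and by the q of the authors' deposited table (0.0547). Without 1 library the number of higher genes in this list was 2 (without C1, C3, K1 or K3), 3 (K2) or 6 (C2). Lmod1, leiomodin 1, a nucleator of smooth muscle actin, had 12 reads in Control and 3 in Tfam cKO, a ratio of 0.265 (95% counting interval 0.0479 to 0.980), and limma gave an adjusted p of 0.162. Des, desmin, shared by smooth and skeletal muscle, varied with the skeletal muscle genes, from 54.2 to 269 normalized reads in Control and 67.7 to 549 in Tfam cKO (adjusted p = 0.396).

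**Figure D4:**
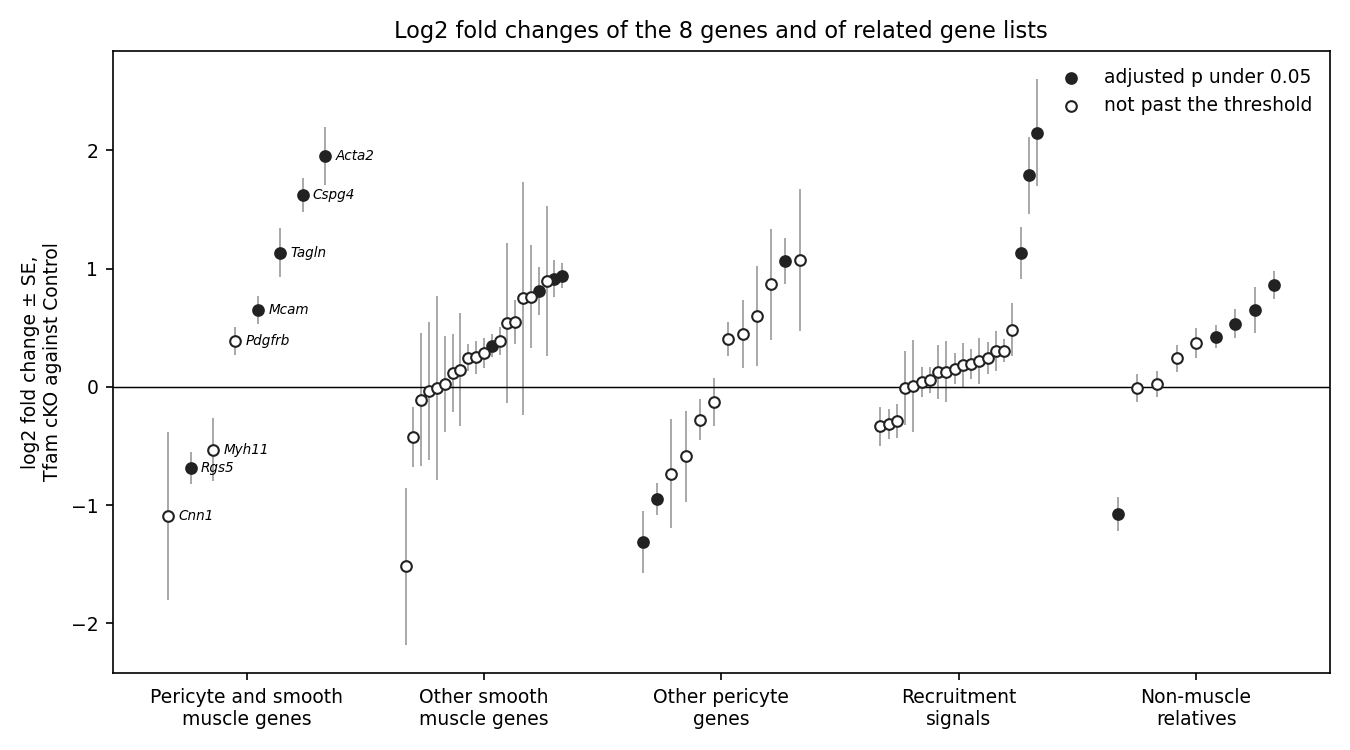
Log2 fold change of Tfam cKO against Control (y axis, points with SE bars) for the 8 pericyte and smooth muscle genes and for 4 related lists, each ordered from lowest to highest; filled points had a limma adjusted p under 0.05. The 8 genes run from -1.09 (Cnn1) to 1.95 (Acta2), and the other lists hold 4, 1, 3 and 4 higher genes and 0, 2, 0 and 1 lower genes.

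Most signals that recruit and mature mural cells did not pass the test, as for 12643 of all 14438 genes tested (6.42% higher and 6.01% lower). Of 20 such genes, 3 were higher and 0 lower, with a median log2 fold change of 0.17 (0 lower also by edgeR and by DESeq2, with S1pr3 alone negative at an unadjusted limma p under 0.05). Pdgfb, the endothelial ligand of the receptor encoded by Pdgfrb, was at 79.9 ± 7.39 and 94.4 ± 5.57 normalized reads (adjusted p = 0.274), and Angpt1, the mural ligand of the endothelial receptor Tek, at 53.1 ± 1.37 and 42.1 ± 3.66 (adjusted p = 0.217). The higher genes were other growth factors and a vasoconstrictor. Tgfb2, a transforming growth factor beta ligand, had 11.05, 36.5 and 18.9 normalized reads in Control and 81.2, 67.8 and 64.5 in Tfam cKO (1.79 ± 0.33, adjusted p = 0.00373), and its receptor gene Tgfbr2 did not pass (0.31, adjusted p = 0.0640), but did after the trend with exon length was taken out (0.0415). Pdgfa, a ligand of the related receptor Pdgfra, rose from 66.6 ± 24.0 to 141 ± 16.3 (1.13 ± 0.22, adjusted p = 0.00543). Edn1, endothelin 1, which contracts smooth muscle, had 3 reads in Control and 23 in Tfam cKO, a ratio of 8.11 whose 95% counting interval was 2.45 to 42.2 (limma adjusted p = 0.00830, DESeq2 adjusted p = 0.0775).

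Relatives of the contractile and pericyte genes that act in many cell types gave 4 higher and 1 lower of 9 tested, with a median log2 fold change of 0.37. Over all genes tested, 6.42% were higher and 6.01% lower. Actg1, cytoplasmic gamma actin, rose from 2678 ± 198 to 4873 ± 477 normalized reads (0.86 ± 0.12, adjusted p = 0.000717). The ratio of Acta2 to Actg1 per kilobase was 0.017 ± 0.004 in Control and 0.038 ± 0.016 in Tfam cKO, without overlap and chosen after the values were seen. Non-muscle myosin Myh9 (0.42, adjusted p = 0.0127) and calponin 2, Cnn2 (0.53, adjusted p = 0.0143), were higher. Myh9 lost its call without C3 (0.0618) or with quantile normalization (0.10), and Cnn2 without C1 (0.0610), C3 (0.0749), K1 (0.0501) or K3 (0.0620). Without 1 library the number of higher relatives was 1 (without C3), 2 (C1 or K1) or 3 (C2, K2 or K3). Rgs4, a G protein regulator related to Rgs5, had 31.1, 28.1 and 24.9 normalized reads in Control and 40.0, 46.1 and 47.6 in Tfam cKO (0.65, adjusted p = 0.0454), the opposite direction to Rgs5, though its call ended without any 1 library (0.0672 to 0.131), with DESeq2 (0.245), without the filter on low values (0.0542) and by the q of the authors' deposited table (0.0618). Pdgfra, the receptor of mesenchymal and fibroblastic cells, fell from 245 ± 40.3 to 116 ± 16.5 (-1.07 ± 0.15, adjusted p = 0.000645). The ratio of Pdgfrb to Pdgfra per kilobase went from 1.34, 1.51 and 1.24 to 3.001, 3.85 and 4.61. It was chosen after the values were seen and was not tested, and Pdgfrb itself did not pass (limma adjusted p = 0.0526).

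Markers of the other cells in the bone moved as follows, and their part in the results above was not tested. Over all genes tested, 6.42% were higher and 6.01% lower. Of the genes of bone-forming cells, Bglap (-1.68, adjusted p = 9.51e-06) and the bone collagen gene Col1a1 (-1.09, adjusted p = 0.00738) fell, and Sp7, an osteoblast transcription factor, did not pass (0.29, adjusted p = 0.0994). Col1a1 lost its call without C1 (0.0831) and was at 0.022 with quantile normalization (adjusted p = 0.953). Of 19 endothelial genes, 2 were higher and 2 lower, and their summed level was 2327 to 2404 normalized reads in Control and 2236 to 2340 in Tfam cKO. Pecam1 (adjusted p = 0.161) and Cdh5 (0.713) did not pass, Emcn, of capillaries and veins, rose (0.70, adjusted p = 0.0112), and so did Plvap (0.43, adjusted p = 0.0240), while Stab2 (-2.14, adjusted p = 0.00107) and Flt4 (-0.91, adjusted p = 0.00358), of sinusoids and lymphatics, fell. Emcn lost its call without C3 (0.0510) or K3 (0.0606), Plvap without C1 (0.0551), C3 (0.0929), K1 (0.0818) or K3 (0.0699), with DESeq2 (0.112) and by the q of the authors' deposited table (0.0759), and Stab2 with a robust fit (0.0646). Of 10 genes of fibroblasts and periosteum, 0 were higher and 2 lower, Dcn (-1.70, adjusted p = 0.000286) and Lum (-0.71, adjusted p = 0.00218), with 0 higher by edgeR and by DESeq2 and Thy1 and Fbln1 positive at an unadjusted limma p under 0.05. The summed level of that list was 4446 to 7869 in Control and 2527 to 10290 in Tfam cKO, highest in the same library as muscle in each group. Its defining markers Col3a1, Dpt and Postn did not pass (adjusted p = 0.962, 0.583 and 0.996). Of 8 genes of marrow stroma, 0 were higher and 4 lower, with no gene positive at an unadjusted limma p under 0.05 and 0 higher by edgeR and by DESeq2, and the summed level went from 2646 to 3129 down to 1070 to 1440. They were Cxcl12 (-1.75, adjusted p = 4.64e-05), Kitl (-0.88, adjusted p = 0.000815), Vcam1 (-0.95, adjusted p = 0.00217) and Adipoq (-1.25, adjusted p = 0.0250), the last of which lost its call without C1, C2, C3 or K1 (0.0642 to 0.104) and with DESeq2 (0.111), while Lepr (-0.32, adjusted p = 0.178) and Ebf3 (-0.31, adjusted p = 0.386) did not pass. Of 10 blood genes tested, 0 were higher and 3 lower, Cd79a of B cells among them (-2.46, adjusted p = 0.000598), while Ptprc, of all white blood cells, did not pass (-0.36, adjusted p = 0.174, and 0.0427 without K2). By edgeR and by DESeq2 0 blood genes were higher, and Csf1r was positive at an unadjusted limma p under 0.05. The number of lower blood genes was 8 without K2, and 2 without C1, C2, K1 or K3. The summed level of the blood genes was 4865 to 6041 in Control and 3587 to 5210 in Tfam cKO. Hba-a1 was listed at 0 in all libraries, and Hbb-bs was not analysed here.

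A shared profile over the 6 libraries was sought within each set of 4 genes, as the mean of their standardized log2 values. The 4 contractile genes had a Pearson r of only 0.53 (Myh11) to 0.63 (Tagln) with their own mean, since they went opposite ways. Of 9685 other genes with a mean of at least 20, those closest to that mean were Adamts1 (r = 0.983), Isg20l2 (0.971), Dlg4 (0.970), Crispld2 (0.970) and Fam198b (0.970). None of these 5 passed the comparison of the groups (adjusted p = 0.504 to 0.817), and without K1 all but Dlg4 changed sign. For the pericyte set, Cspg4 (0.957), Mcam (0.945) and Pdgfrb (0.911) followed the mean and Rgs5 opposed it (-0.956). The closest other genes were Rspo3 (r = 0.9996), Lrp4 (0.9991), Hexa (0.9987), Ick (0.997) and C330006A16Rik (0.997), all higher in Tfam cKO at adjusted p = 0.000737 to 0.0138. Hexa lost its call with quantile normalization (0.0550), and Ick without C1 (0.0547) or K3 (0.0688) and with DESeq2 (0.0815). The points of these correlations are libraries in 2 groups, and r is given as a description. The 5 genes of each set were picked by their likeness over the same 6 libraries. Whether they passed follows largely from that choice, so their adjusted p-values are no separate evidence.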

How the data were processed

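Poly(A) RNA of flushed humeral bone was sequenced in 3 Control and 3 Tfam cKO libraries. Per the labels' protocols, directional libraries used 50 ng of RNA (integrity number above 6.7). TopHat, Cufflinks and mm10 are named in the submitters' processing notes; the sources used here do not state the counter, its use of strand or how size factors were set. The authors deposited values per gene and library that are a signal, read counts divided by 1 size factor per library, with exon blocks, p-values and q-values, per the file headers. In each library 100% of values above 0 were whole multiples of 1 read (tolerance 0.001), so whole reads were recovered; for C1 and C3 1 read is worth about 1 (within 1%), where that test is weak.

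limma 3.58.1 (R 4.3.3, mean-variance trend) was fitted to log2(value + 1) of the 14438 genes with a mean of at least 1, genotype as the only term, with Benjamini-Hochberg adjustment over all of them at 0.05. Fold changes on this scale are understated for genes with few reads. Adjusted p-values are limma's unless named otherwise. edgeR 4.0.16 and DESeq2 1.42.0 on recovered reads, other pseudocounts, filters and normalizations, a replicate block and leaving out each library were alternatives. All 3 tools were tested on simulated counts with known changes. The genes and lists were chosen with earlier results of these data known. Named are all 8 genes, Tfam, the 4 genes of smallest p in each related list that is reported, the defining markers of other cell types and the 5 genes closest to each mean profile; Rgs4, Pcsk7, Pdgfb, Angpt1, Lmod1, Myocd, Stab2, Flt4, Plvap, Dcn, Lum, Kitl, Vcam1, Adipoq, Des, S1pr3, Thy1, Fbln1 and Csf1r were chosen after their values were seen. One list of regulators of contractile genes is not reported here, except the sparse counts of Myocd. Counting intervals cover counting error only. Same-numbered libraries of the groups did not deviate together, which does not settle whether they are pairs.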

Additional observations from a re-analysis of the deposited data

How the results depend on the processing

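Across the alternatives the 4 higher genes (Acta2, Tagln, Cspg4, Mcam) and the 1 lower gene (Rgs5) kept direction and side of the threshold, and Pdgfrb was called higher too under 4 of them. Over the whole table, 927 genes were higher and 868 lower, against 606 and 543 with DESeq2 and 545 to 834 and 346 to 973 without 1 library. With the replicate number as a block, 687 and 603 were called. Deviations of same-numbered libraries correlated at -0.23, 0.01 and 0.09, and not every library correlated best with its own number. With 3 libraries per group, these values cannot decide whether the numbers pair the samples. Under that block, 2 other smooth muscle genes and 1 endothelial gene were higher, and 5 blood genes lower, and Susd5 (adjusted p = 0.0594), Flna (0.0954), Rgs4 (0.0900), Plvap (0.0536) and Col1a1 (0.0540) did not pass. Higher endothelial genes numbered 1 also with DESeq2 and with the authors' deposited q, and lower endothelial genes 1 with a robust fit. After the trend with exon length was taken out, 2 other pericyte genes were higher and 5 blood genes lower. Without 1 library, higher genes numbered 2 to 6 (other smooth muscle), 1 to 2 (other pericyte), 1 to 3 (relatives), 0 to 2 (endothelial) and 0 to 2 (skeletal muscle), and lower blood genes 2 to 8.

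Some genes changed sign, all but Col1a1 among those that did not pass. After quantile normalization, Col3a1 was at -0.31 and Col1a1, lower in the main comparison, at 0.022. Postn was at 0.17 with edgeR, 0.16 with DESeq2 and 0.16 in the authors' deposited table. Without 1 library the log2 fold change was -0.29 to 1.36 for Acta1, -0.16 to 1.15 for Ckm, -1.02 to 0.80 for Myh3, -0.61 to 0.64 for Col3a1, -0.18 to 1.41 for Dpt, -0.55 to 0.42 for Postn, -0.073 to 0.33 for Col2a1, -0.0034 to 0.16 for Cdh5, -0.0010 to 0.53 for Adamts1, -0.023 to 0.16 for Isg20l2, -0.053 to 0.69 for Crispld2, -0.053 to 0.13 for Fam198b, -0.029 to 0.25 for Pcsk7 and -0.81 to 0.18 for Myocd. The cause was not tested. Depth limits Cnn1, Lmod1, Myocd and Edn1, each with under 30 reads in all.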
